A study of Mus musculus with 6 samples.

Results

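The genes Nes, Sox2, Pax6, Eomes, Neurog2, Neurod1, Igfbpl1, Sox11 and Dcx mark the steps by which neural stem cells of the hippocampus become immature neurons. They were taken by gene name from the table of normalized counts of the hippocampus at postnatal day 14 (P14), and the 9 genes are 9 of the 24935 genes listed there. C57BL/6 mouse pups of both sexes were kept with their dams from P2 to P14, either in room air (air) or in 85% oxygen (hyperoxia). RNA from the left hippocampus was taken at P14 and polyA-selected, strand-specific libraries were sequenced, with 3 libraries in air and 3 in hyperoxia. Both groups shared strain, age and tissue, and oxygen was the only exposure that the labels name as differing between them. Columns of the table are named by group and numbered 1 to 3 without naming an animal, and each direction below follows the group in the column name. For several genes the paper prints the opposite sign to that of the columns. It reports Eomes mRNA, named TBR2 there, as increased in hyperoxia, whereas the columns give it as lower. The signs it prints for Sox2 and Pax6, which it reports as not different between the groups, are also opposite to those of the columns. The sources used here do not settle which is right, and no gene in the table checks the column names independently. Every direction is therefore conditional on them, and all would turn if the names of the groups were exchanged.

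New granule neurons of the dentate gyrus arise from radial glia-like stem cells in the subgranular zone. These stem cells give rise to intermediate progenitors, which divide and produce neuroblasts, and the neuroblasts migrate a short way and mature into granule cells. In rodents this production is high in the first weeks after birth and continues at a lower rate in adults. Transcription factors succeed each other along the way, with Sox2 and Pax6 in stem cells, Eomes (Tbr2) and Neurog2 in intermediate progenitors, and Neurod1 and Sox11 in neuroblasts. Nes encodes nestin, an intermediate filament protein of neural stem cells, and Dcx encodes doublecortin, a microtubule-binding protein of migrating neuroblasts. None of the 9 genes is limited to this lineage, since Sox2 is also expressed in astrocytes and oligodendrocyte precursors, Nes in vessels, Eomes in Cajal-Retzius cells and Dcx in young inhibitory neurons.

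The deposited libraries held between 30384052 and 38746972 reads on genes, and the stage genes had between 93 reads (Neurog2) and 5510 reads (Dcx) in a library. The unit of the values is the normalized count, a read count divided by 1 size factor per library. Changes are given as log2 of the normalized count plus 1, hyperoxia minus air, with the standard error (SE) and the Benjamini-Hochberg adjusted p of limma over 17778 genes with a mean of at least 10. A gene was called at an adjusted p under 0.05. Hyperoxia library 3 stood apart in some choroid plexus markers, with 7454.3 normalized counts of Ttr, the transthyretin gene, against 166.9 to 887.0 in the other 5 libraries. Each stage gene is therefore also given without this library where that changed its call or moved its change by over 1.5 times.

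In the GENCODE annotation of GRCm38, the stem cell genes are Nes (ENSMUSG00000004891.16) at chr3:87971078-87980451, Sox2 (ENSMUSG00000074637.7) at chr3:34650405-34652461 and Pax6 (ENSMUSG00000027168.21) at chr2:105668900-105697364. The intermediate progenitor genes are Eomes (ENSMUSG00000032446.14) at chr9:118478212-118486132 and Neurog2 (ENSMUSG00000027967.8) at chr3:127633135-127635631. The genes of neuroblasts and immature neurons are Neurod1 (ENSMUSG00000034701.9) at chr2:79452521-79456751, Igfbpl1 (ENSMUSG00000035551.6) at chr4:45809468-45826923, Sox11 (ENSMUSG00000063632.6) at chr12:27334264-27342574 and Dcx (ENSMUSG00000031285.14) at chrX:143855842-143933311. Neurod1, Igfbpl1, Sox11 and Dcx lie on the minus strand and the others on the plus strand, and Sox2 and Sox11 have a single exon.

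The upstream sequence of the genes that passed the test is shown first, with Neurog2 beside them as the other intermediate progenitor gene. Each line holds the 250 bases before the RefSeq start site on GRCm38.p6, 5′ to 3′ on the strand of the gene. Capitals mark a TATA box (TATATAA) and any E-box (CANNTG), the letters bound by basic helix-loop-helix (bHLH) factors such as Neurog2 and Neurod1, searched on both strands. Nes (chr3:87970843-87971092, plus strand) and Dcx (chrX:143933220-143933469, minus strand, the upstream of its 2 starts) were higher in hyperoxia, and Eomes (chr9:118477939-118478188, plus strand) and Neurod1 (chr2:79456637-79456886, minus strand) were lower. The region of Neurog2 is chr3:127632886-127633135, plus strand.
Nes: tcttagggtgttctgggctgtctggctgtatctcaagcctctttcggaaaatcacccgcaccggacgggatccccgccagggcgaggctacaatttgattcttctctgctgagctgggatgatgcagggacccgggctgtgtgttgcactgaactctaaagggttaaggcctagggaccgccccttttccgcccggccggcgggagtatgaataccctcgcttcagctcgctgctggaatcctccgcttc
Dcx: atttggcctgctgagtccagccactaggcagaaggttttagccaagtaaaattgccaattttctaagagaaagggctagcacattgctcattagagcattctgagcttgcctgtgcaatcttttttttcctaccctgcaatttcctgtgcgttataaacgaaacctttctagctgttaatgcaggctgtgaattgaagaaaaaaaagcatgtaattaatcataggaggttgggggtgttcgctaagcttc
Eomes: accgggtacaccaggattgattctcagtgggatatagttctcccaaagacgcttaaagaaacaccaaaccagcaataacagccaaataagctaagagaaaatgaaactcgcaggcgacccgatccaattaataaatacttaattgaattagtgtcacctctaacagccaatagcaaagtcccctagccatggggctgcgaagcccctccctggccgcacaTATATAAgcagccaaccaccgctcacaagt
Neurog2: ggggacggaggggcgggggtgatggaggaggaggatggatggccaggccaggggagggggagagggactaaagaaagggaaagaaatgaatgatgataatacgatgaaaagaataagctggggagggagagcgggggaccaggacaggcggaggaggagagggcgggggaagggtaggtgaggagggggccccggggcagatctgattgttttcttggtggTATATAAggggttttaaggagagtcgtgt
Neurod1: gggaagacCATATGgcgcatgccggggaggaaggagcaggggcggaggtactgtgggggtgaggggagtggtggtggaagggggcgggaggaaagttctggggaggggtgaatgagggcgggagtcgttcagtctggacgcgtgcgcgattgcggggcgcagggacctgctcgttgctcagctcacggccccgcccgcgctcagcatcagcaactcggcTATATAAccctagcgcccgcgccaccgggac

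The sequence TATATAA was present in the regions of Eomes, Neurog2 and Neurod1, with its first base 30, 29 and 31 bases before the start site. It was not found in the regions of the other members with a RefSeq entry, and it was present in 3.04% of the 32851 mouse regions of the same length. This motif was chosen after the sequences had been seen, and its share is a description. An E-box lay in the regions of Neurod1 (CATATG, 242 bases before the start), Sox11 (CAGCTG at 210 and CATATG at 32 bases) and the second start of Pax6 (CAAATG, 20 bases), against 66.2% of all regions. The SOX core ACAAAG, held by 16.5% of all regions, was found for Sox2 and for the second start of Pax6 and of Dcx. The RBPJ core TGGGAA of the Notch pathway, held by 21.6%, was found for no member. The regions shown differed in base composition, with 41.6% GC for Dcx, 46.4% for Eomes and 67.6% for Neurod1. RefSeq regions were matched for 8 of the 9 genes, and Igfbpl1 was not.

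Across the 9 genes, hyperoxia went with higher Nes and Dcx and with lower Eomes and Neurod1. These 4 of 9 genes were called, 2 in each direction, while 30.5% of all 17778 genes tested were called, 14.9% as higher and 15.6% as lower. The share of members called was thus near that of all genes. In 7 of the 9 genes the hyperoxia libraries did not overlap the air libraries, against 46.1% of all genes tested. Nes, Sox2 and Dcx, 3 genes, were apart as higher (22.3% of all genes), and Pax6, Eomes, Neurog2 and Neurod1, 4 genes, as lower (23.8%). For each of these 7 the exact permutation test, two-sided, gave p = 0.1, which is the smallest value that 3 libraries against 3 allow. At an unadjusted p under 0.05 in limma, 7 members passed, as did 7594 of all genes. The median change was 0.20 for the 3 stem cell genes, -0.64 for the 2 intermediate progenitor genes and -0.26 for the 4 genes of neuroblasts and immature neurons, beside -0.01 over all genes tested. The stem cell median is the value of Sox2, which was not called, and Pax6 went the other way. The last median does not describe the called genes of its stage, Neurod1 (-0.71) and Dcx (0.64), which went in opposite directions.

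**Figure D1:**
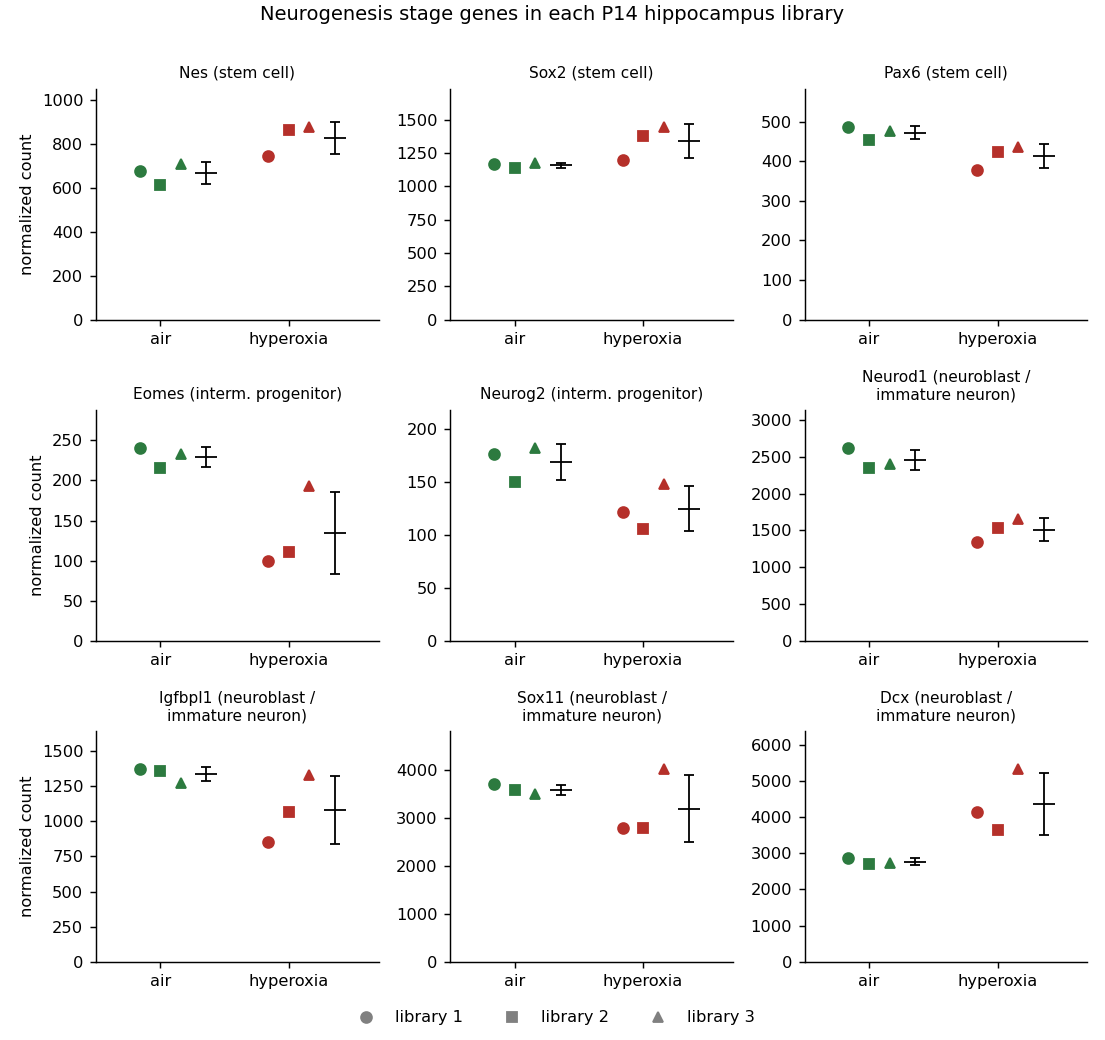
Normalized count of each stage gene in the 3 air libraries (green) and the 3 hyperoxia libraries (red), with the number of the deposited column as the symbol; the black mark beside each group is its mean ± SD (n = 3). The groups do not overlap for any gene but Igfbpl1 and Sox11, where hyperoxia library 3 lies at or above the lowest air library.

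Of the 3 stem cell genes, Nes passed the test and Sox2 and Pax6 did not. In the order of library 1, 2 and 3, which is kept for all genes, Nes had 676.2, 613.6 and 709.4 normalized counts in air and 742.5, 860.4 and 874.5 in hyperoxia. All hyperoxia libraries were above all air libraries, and hyperoxia library 1 was nearest to them. The mean was 666.4 ± 48.64 (SD, n = 3) in air and 825.8 ± 72.47 in hyperoxia, a ratio of 1.24, and Nes rose by 0.31 on the log2 scale (SE 0.10, limma adjusted p = 0.0375). The call of Nes was lost without air library 1, 2 or 3 (changes of 0.32, 0.25 and 0.35) and without hyperoxia library 3 (0.26), and adjusted p ranged from 0.0216 to 0.154 over its 16 alternatives.

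Sox2, a transcription factor that maintains neural stem cells, had 1164.9, 1135.6 and 1172.4 normalized counts in air. In hyperoxia it had 1194.2, 1377.8 and 1442.0, so the groups did not overlap, although hyperoxia library 1 lay close above the highest air library. The ratio of the means was 1.16 and the log2 change was 0.20 (SE 0.09, limma adjusted p = 0.0997), which did not pass the test. It passed without hyperoxia library 1 (0.28, adjusted p = 0.0475), and after correction for transcript length and GC content (0.29, adjusted p = 0.0226). The single exon of Sox2 lies within the span of Sox2ot, a long noncoding RNA on the same strand with which it shares no exon base. Sox2ot had 1254.41 to 1525.59 normalized counts in air and 932.58 to 990.64 in hyperoxia, the opposite order to that of Sox2.

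Pax6, a paired-box factor of stem cells and early progenitors, had 485.9, 453.8 and 477.4 normalized counts in air. Its values in hyperoxia were 378.3, 422.3 and 436.3, all below those in air. The ratio was 0.87 and the log2 change -0.20 (SE 0.09, limma adjusted p = 0.137), and Pax6 was called under none of the 16 alternatives. Within each library, Pax6 relative to Sox2 was 0.4171, 0.3996 and 0.4072 in air and 0.3168, 0.3065 and 0.3025 in hyperoxia. The ratio of Nes to Sox2 was 0.5804, 0.5403 and 0.6051 in air and 0.6218, 0.6245 and 0.6064 in hyperoxia. Pax6 thus had the opposite direction to the other stem cell genes in every hyperoxia library. Ratios within a library were chosen after the values had been seen and were not tested.

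Of the 2 intermediate progenitor genes, Eomes passed the test and Neurog2 did not. Eomes, a T-box factor that marks the intermediate progenitors of glutamatergic neurons, had 240.1, 215.7 and 233.0 normalized counts in air and 99.9, 111.0 and 193.0 in hyperoxia. Hyperoxia libraries 1 and 2 were far below the air libraries, while hyperoxia library 3 lay just under the lowest of them. The mean was 229.6 ± 12.56 in air and 134.6 ± 50.89 in hyperoxia (SD, n = 3), a ratio of 0.586, and Eomes fell by 0.83 on the log2 scale (SE 0.22, limma adjusted p = 0.0194). Without hyperoxia library 3 the change was -1.12 (adjusted p = 0.000533). The call of Eomes was lost without air library 1, 2 or 3 (-0.79, -0.87 and -0.82) and without hyperoxia library 1 (-0.64), with an adjusted p of at most 0.0787 over all 16 alternatives. An antisense gene, Gm33460, shares 118 exon bases with Eomes. It has no row in the table of normalized counts, so its level could not be set beside that of Eomes.

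Neurog2, a proneural bHLH factor that drives progenitors towards a neuronal fate, had 176.1, 149.6 and 181.7 normalized counts in air and 121.1, 105.3 and 147.7 in hyperoxia. Every hyperoxia value was below every air value, but the highest in hyperoxia and the lowest in air were close. The ratio was 0.737 and the log2 change -0.45 (SE 0.16, limma adjusted p = 0.0565), which did not pass the test. It passed without hyperoxia library 3 (-0.57, adjusted p = 0.0212) and with quantile normalization (-0.50, adjusted p = 0.0334). The length and GC correction brought it to -0.29 (adjusted p = 0.269). Relative to Sox2 in the same library, Eomes was at 0.2061, 0.19 and 0.1988 in air and at 0.08364, 0.08053 and 0.1339 in hyperoxia. The ratio of Neurog2 to Sox2 was 0.1512, 0.1317 and 0.155 in air and 0.1014, 0.07642 and 0.1024 in hyperoxia. Both ratios were lower in every hyperoxia library, whereas the ratio of Eomes to Neurog2 overlapped between the groups (1.282 to 1.442 in air, and 0.8248, 1.054 and 1.307 in hyperoxia).

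The genes of neuroblasts and immature neurons went in different directions. Neurod1, a bHLH factor needed for the maturation and survival of new granule neurons, had 2618.1, 2350.6 and 2408.5 normalized counts in air and 1347.2, 1532.9 and 1652.4 in hyperoxia. The groups were far apart, with the highest hyperoxia library well under the lowest air library. The mean was 2459 ± 140.7 in air and 1511 ± 153.8 in hyperoxia (SD, n = 3), a ratio of 0.614. Neurod1 fell by 0.71 on the log2 scale (SE 0.09, limma adjusted p = 0.00098) and stayed called under all 16 alternatives, with changes from -0.77 to -0.63. Exons of Neurod1 overlap those of Cerkl (201 bases, same strand) and Gm26755 (154 bases, other strand), which had at most 36.73 and 2.9 normalized counts in any library.

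Dcx had 2869.5, 2711.9 and 2729.8 normalized counts in air and 4130.7, 3636.5 and 5318.3 in hyperoxia. The air libraries were close together and all hyperoxia libraries lay above them, with hyperoxia library 3 the highest. The mean was 2770 ± 86.29 in air and 4362 ± 864.4 in hyperoxia (SD, n = 3), a ratio of 1.57, and Dcx rose by 0.64 on the log2 scale (SE 0.12, limma adjusted p = 0.00483). Dcx was called under all 16 alternatives, with the change at 0.48 without hyperoxia library 3 and at 0.29 (adjusted p = 0.0257) after the correction for transcript length and GC content. Its transcript was the lowest in GC of the 9 genes, at 40.6%, and its exons were the longest, at 12647 bases.

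Igfbpl1 encodes an insulin-like growth factor binding protein-like protein of neuroblasts. It had 1369.3, 1361.5 and 1276.1 normalized counts in air and 849.5, 1064.2 and 1332.0 in hyperoxia, so hyperoxia library 3 fell among the air libraries. The log2 change was -0.33 (SE 0.14, limma adjusted p = 0.105, exact permutation p = 0.2), and of the 16 alternatives the one without hyperoxia library 3 called it (-0.49, adjusted p = 0.00758). Over the 6 fits without 1 library, its change ranged from -0.49 to -0.17.

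Sox11, a SoxC factor that activates genes of newborn neurons, had 3709.5, 3581.9 and 3500.9 normalized counts in air and 2788.0, 2798.7 and 4018.2 in hyperoxia. Hyperoxia libraries 1 and 2 were below all air libraries and hyperoxia library 3 was above all of them. The log2 change was -0.19 (SE 0.13, limma adjusted p = 0.293, exact permutation p = 0.4). It was -0.36 without hyperoxia library 3 (adjusted p = 0.0052) and -0.44 after the length and GC correction (adjusted p = 0.0182), both past the threshold. Over the 6 fits without 1 library, its change ranged from -0.36 to -0.10.

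**Figure D2:**
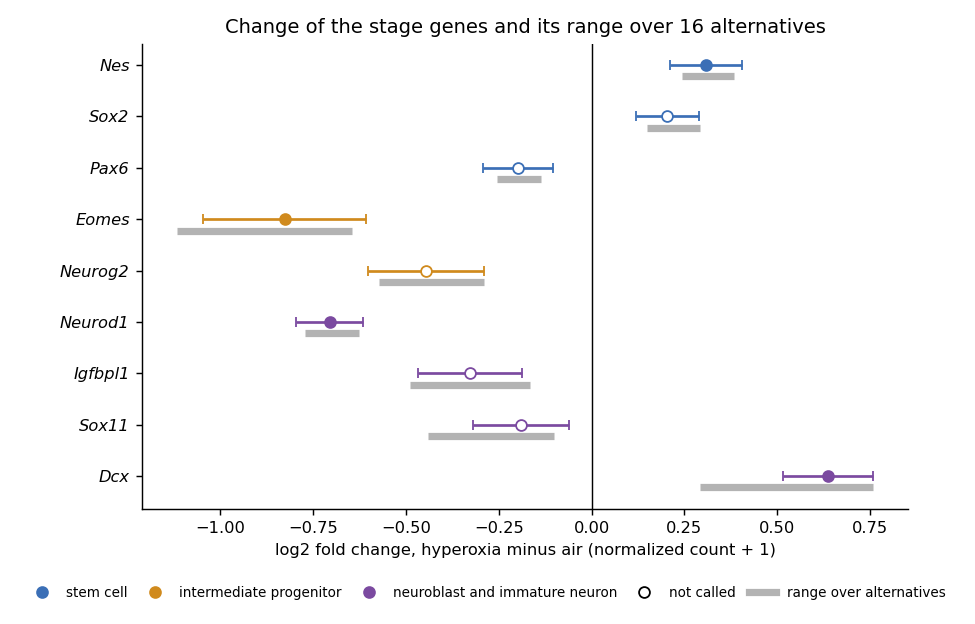
Change of each stage gene (points, log2 scale, hyperoxia minus air, error bars ± SE of limma), filled where called, with grey bars for the range over 16 alternatives. No bar crosses 0, and the correction for length and GC content sets the lower end of the bar of Dcx at 0.29.

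Dcx and Neurod1, which both mark neuroblasts, changed in opposite directions, and their ratio within a library shows this. The ratio of Dcx to Neurod1 was 1.096, 1.154 and 1.133 in air and 3.066, 2.372 and 3.218 in hyperoxia. Dcx relative to Eomes was at 11.95, 12.57 and 11.71 in air and at 41.35, 32.78 and 27.55 in hyperoxia. Dcx relative to Sox11 was at 0.7735, 0.7571 and 0.7798 in air and at 1.482, 1.299 and 1.324 in hyperoxia. None of these 3 ratios overlapped between the groups. The ratio of Neurod1 to Sox2 was 2.247, 2.07 and 2.054 in air and 1.128, 1.113 and 1.146 in hyperoxia. By contrast, Igfbpl1 relative to Sox11 was 0.3645 to 0.3801 in air and 0.3047 to 0.3803 in hyperoxia, and Eomes relative to Neurod1 was 0.09173 to 0.09676 and 0.07238 to 0.1168, with overlap in both. In whole tissue, fewer cells of a type and less RNA per cell cannot be told apart.

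**Figure D3:**
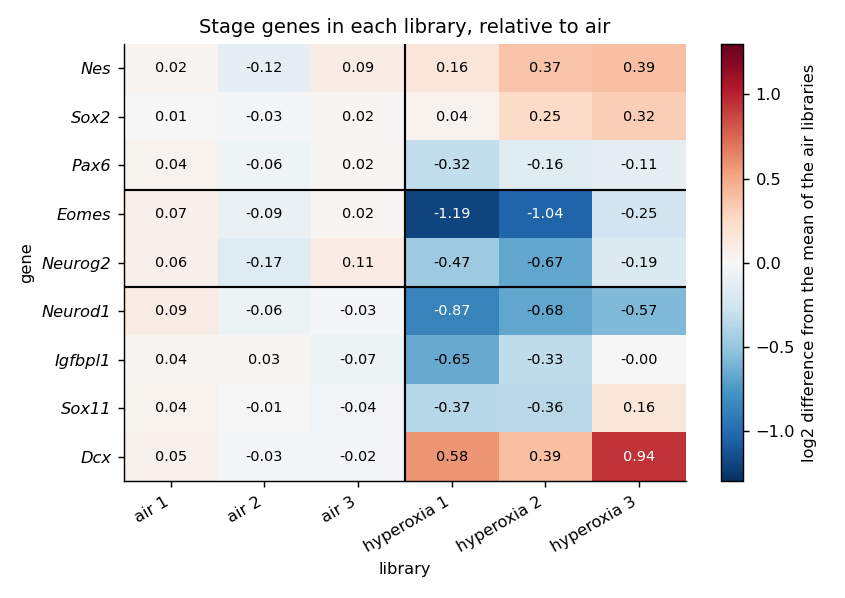
Log2 difference of each stage gene (rows, from stem cell at the top to immature neuron at the bottom) from the mean of the air libraries, in each of the 6 libraries (columns). In hyperoxia library 3, Eomes, Neurog2, Igfbpl1 and Sox11 are closer to air (-0.25, -0.19, 0.00 and 0.16) than in hyperoxia libraries 1 and 2, while Dcx is farthest from it (0.94).

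The spread within hyperoxia was wider than within air for each of the 9 genes. The coefficient of variation in air was at most 10.15% (Neurog2), with 1.68% for Sox2 and 2.925% for Sox11. In hyperoxia it was 37.81% for Eomes, 22.34% for Igfbpl1, 22.09% for Sox11 and 19.82% for Dcx. Hyperoxia library 3 was the one nearest to air for Pax6, Eomes, Neurog2, Neurod1 and Igfbpl1, and farthest from it for Nes, Sox2 and Dcx. The same library had the highest sum of choroid plexus markers, mostly of Ttr, although Kl and Kcnj13 were not highest there. Aqp1, another of these markers, was higher in all hyperoxia libraries (34.0 to 63.7 normalized counts) than in air (12.3 to 17.0). The part of choroid plexus in the stage genes was not tested.

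On a scale of normalized counts per kilobase of exon, the levels of the 9 genes could be set in order. In air, Neurod1 was the highest at 901.1 (861.3 to 959.4 over the libraries), followed by Sox2 at 563.0 (552.1 to 570.0), Sox11 at 432.8 (421.2 to 446.3) and Igfbpl1 at 411.1 (392.6 to 421.3). Only the last 2 of these overlapped, by a narrow margin. Dcx followed at 219.0, Nes at 103.9, Neurog2 at 75.93, Eomes at 55.26 and Pax6 at 40.4, with no overlap between neighbours. In hyperoxia, Sox2 was the highest at 650.5 (580.6 to 701.0) and Neurod1 was next at 553.7 (493.7 to 605.5), with overlapping ranges. Sox11 (385.3, from 335.5 to 483.5), Dcx (344.9, from 287.5 to 420.5) and Igfbpl1 (332.9, from 261.4 to 409.8) could not be ordered beyond their spread. Nes was at 128.7, Neurog2 at 55.99 (47.28 to 66.32), Pax6 at 35.26 (32.35 to 37.31) and Eomes at 32.39 (24.04 to 46.45), where the ranges of Pax6 and Eomes overlapped. Exon lengths were those of the GENCODE annotation, from 2057 bases for Sox2 to 12647 for Dcx. They join all annotated exons of a gene, 11694 bases in 16 exons for Pax6. The order depends on this choice of length, and no other was tried.

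**Figure D4:**
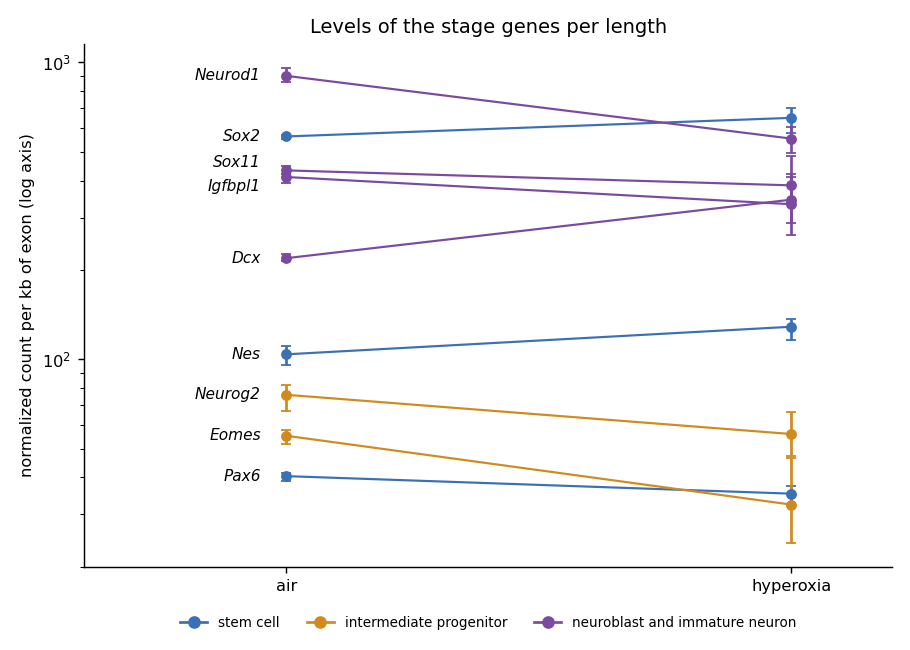
Level of each stage gene per length (normalized count per kb of exon, log axis) in air and hyperoxia; points are means of 3 libraries, bars run from the lowest to the highest library and lines join the same gene. Neurod1 is the highest gene in air (901.1) and Sox2 in hyperoxia (650.5).

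Other genes of the same steps were counted in lists, and the genes named are those called with the largest change. Each count of a list stands beside the share of all genes tested, of which 30.5% were called, 14.9% as higher and 15.6% as lower. Among 12 further radial glia-like stem cell genes, 3 rose, 2 fell and 7 were not called, with a median change of 0.10. Fabp7, which encodes the brain fatty acid-binding protein of radial glia, had 1173.4, 1177.4 and 916.8 normalized counts in air and 2113.5, 3235.7 and 2354.1 in hyperoxia (log2 change 1.22, SE 0.16, limma adjusted p = 0.00098). Vim, the intermediate filament vimentin, rose from 1485 ± 80.71 to 2368 ± 496.4 (SD, n = 3 each; log2 change 0.65, limma adjusted p = 0.00564). Hes1, a Notch target that holds cells in the progenitor state, rose by 0.70 (limma adjusted p = 0.00384). Emx2, a homeobox factor of hippocampal progenitors, fell from 1114 ± 10.81 to 679 ± 93.04 (log2 change -0.72, limma adjusted p = 0.0014). All 4 were called under all 16 alternatives. Astrocytes also express Fabp7, Vim and Hes1, and beside these genes 4 of 9 astrocyte markers rose and 2 fell, with summed normalized counts of 207700 to 218200 in air and 245200 to 262700 in hyperoxia. Slc1a2, the most abundant of the astrocyte markers, rose by 0.51, from a mean of 104600 to 149400. The rise of the sum follows this gene and does not describe the list, in which Aldoc (-0.37) and S100b (-0.40) fell. The part of astrocytes in these genes was not tested.

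Among 12 genes of dividing cells, 4 rose, none fell and 8 were not called by limma, with a median of 0.28. The share called was near that of all genes (30.5%, with 14.9% as higher). Mki67, the gene of the proliferation antigen Ki-67, had 329.6, 298.2 and 292.6 normalized counts in air and 486.2, 495.9 and 742.2 in hyperoxia, and rose by 0.88 (SE 0.16, limma adjusted p = 0.00361). Top2a, a topoisomerase of cells that replicate and divide, rose by 0.65 (limma adjusted p = 0.0113). Leaving out air library 1 ended this call (adjusted p = 0.055). Cdk1 and Birc5, which act in mitosis, rose by 0.77 and 0.53 (limma adjusted p = 0.0409 and 0.0361), and 5 of the 6 fits with a library left out lost each call. Without air library 1 the call of Cdk1 held, and without hyperoxia library 2 that of Birc5 held. Pcna, a replication clamp, had a change of -0.10 and was not called. By staining at P14, the paper found fewer PCNA-positive cells in the dentate gyrus with hyperoxia. That is a count of protein-stained cells in that region, whereas the values here are RNA of the whole hippocampus. Oligodendrocyte precursors and endothelial cells also divide at this age, and 2 of 6 markers of the former and 3 of 5 of the latter rose. Their summed normalized counts were 21210 to 24050 in air and 23470 to 26510 in hyperoxia for the precursors, and 5273 to 5647 and 6540 to 7622 for the endothelial cells, which also express Nes. Pericyte markers, of which 1 of 5 rose, summed to 10850 to 11500 and 12390 to 14250. The marker that rose was Rgs5, from a mean of 6332 to 8251, and the sum follows it. The part of these cells in Nes and in the genes of dividing cells was not tested.

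Of 11 further genes of intermediate progenitors, 3 fell, none rose and 8 were not called by limma, with a median of 0.07. The share called was near that of all genes (30.5%, with 15.6% as lower). Insm1, a zinc finger factor of progenitors that leave the cell cycle, had 307.0, 301.2 and 299.8 normalized counts in air and 180.3, 159.6 and 223.0 in hyperoxia. It fell by 0.70 on the log2 scale (SE 0.13, limma adjusted p = 0.0047) and was called under all 16 alternatives. Tfap2c, an AP-2 factor upstream of Eomes in cortical progenitors, fell by 0.77 (limma adjusted p = 0.0473), and only without hyperoxia library 3 did its call survive the removal of a library. Ccnd2, a cyclin and the most abundant of the list, had a change of 0.13 and was not called. Cajal-Retzius cells also express Eomes, and their factor Trp73 had 184.8 to 193.3 normalized counts in air and 132.6, 164.2 and 208.5 in hyperoxia. Trp73 was not called, and in hyperoxia library 3 it lay above all air libraries, where Eomes lay below them. Lhx1 and Lhx5, other factors of these cells, were at 12.3 to 34.0 in every library and were not called. Reln and Ndnf, which inhibitory neurons also express, rose, and the sum of the 5 markers was 3625 to 4015 in air and 4980 to 6264 in hyperoxia.

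Of 14 further genes of immature neurons, 5 rose, 3 fell and 6 were not called (median 0.09), beside 30.5% of all genes called. Dpysl3, a cytoskeletal regulator of growing axons, had 5641.1, 5014.7 and 5228.7 normalized counts in air and 10593.4, 9823.7 and 12697.3 in hyperoxia (log2 change 1.05, SE 0.10, limma adjusted p = 0.00033). The genes that fell were the bHLH factors Neurod6 (-0.75, limma adjusted p = 0.0014), Neurod2 (-0.71, adjusted p = 0.00102) and Bhlhe22 (-0.66, adjusted p = 0.00327). All 4 were called under all 16 alternatives, and in each the hyperoxia libraries did not overlap the air libraries. Neurod2, Neurod6 and Bhlhe22 are also expressed in mature pyramidal neurons and granule cells. Tbr1, the factor that follows Eomes and Neurod1 in glutamatergic neurons, had a change of -0.01 and was not called.

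Of 10 genes of granule cell maturation, 7 fell, none rose and 3 were not called by limma, with a median of -0.60. Of all genes tested, 30.5% were called, 15.6% as lower. C1ql2, a secreted synaptic protein of granule cells, had 2433.5, 2399.5 and 2178.5 normalized counts in air and 814.1, 1151.4 and 1020.2 in hyperoxia (log2 change -1.24, SE 0.12, limma adjusted p = 0.000346). Plk5, a polo-like kinase expressed in brain, fell from 217.7 ± 4.641 to 89.49 ± 8.029 (-1.28), and Trpc6, a cation channel, from 445.4 ± 31.69 to 208.4 ± 27.18 (-1.10; SD, n = 3), both called under all 16 alternatives. Dsp, the gene of desmoplakin, fell by 0.73 (limma adjusted p = 0.0333), with 1021.0, 816.3 and 1752.8 in hyperoxia and at least 1839.2 in air, and lost its call without any one of the air libraries or hyperoxia library 1. Prox1, the factor that sets granule cell identity, had 7918.9 to 8664.9 in air and 5298.5, 5180.7 and 8533.4 in hyperoxia and was not called (-0.42, limma adjusted p = 0.0814). Prox1 thus shared with Eomes, Igfbpl1 and Sox11 a value near air in hyperoxia library 3.

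Markers of the hippocampus and of neighbouring tissue are set beside these genes. Of 6 hippocampal markers, 2 fell (Spink8 and C1ql2), and their sum was 36370 to 37420 normalized counts in air and 28290, 23670 and 37330 in hyperoxia. The 4 neocortical markers summed to 3068 to 3166 in air and to 5938, 5074 and 4077 in hyperoxia, and Rorb and Cux2 rose. Cux2 had 1113.2 to 1167.8 in air and 1901.5 to 2773.0 in hyperoxia. Thalamic markers summed to 2252 to 2452 and 2045 to 3143, and 2 of 4 rose. Hyperoxia libraries 1 and 2 thus had the lowest sums of hippocampal markers and the highest sums of neocortical markers. The hippocampal sum follows its most abundant gene, Zbtb20 (10223.0, 8556.8 and 17358.3 in hyperoxia), and does not describe the list. Wfs1 was highest in hyperoxia library 1 (9057.9), and Spink8 and C1ql2 were low in every hyperoxia library. Pax6, Eomes, Neurog2, Neurod1, Igfbpl1 and Sox11 were also lowest in hyperoxia libraries 1 and 2. The part of tissue composition in the stage genes was not tested. Markers of inhibitory neuroblasts, which express Dcx and Sox11, summed to 2779 to 3072 in air and 2555 to 3102 in hyperoxia, with Dlx5 lower and the other 6 of 7 not called. No marker of any of these cell types was at 0 in all libraries. Ependymal markers summed to 484.1 to 658.1 and 306.7 to 492.3, with Foxj1 lower.

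**Figure D5:**
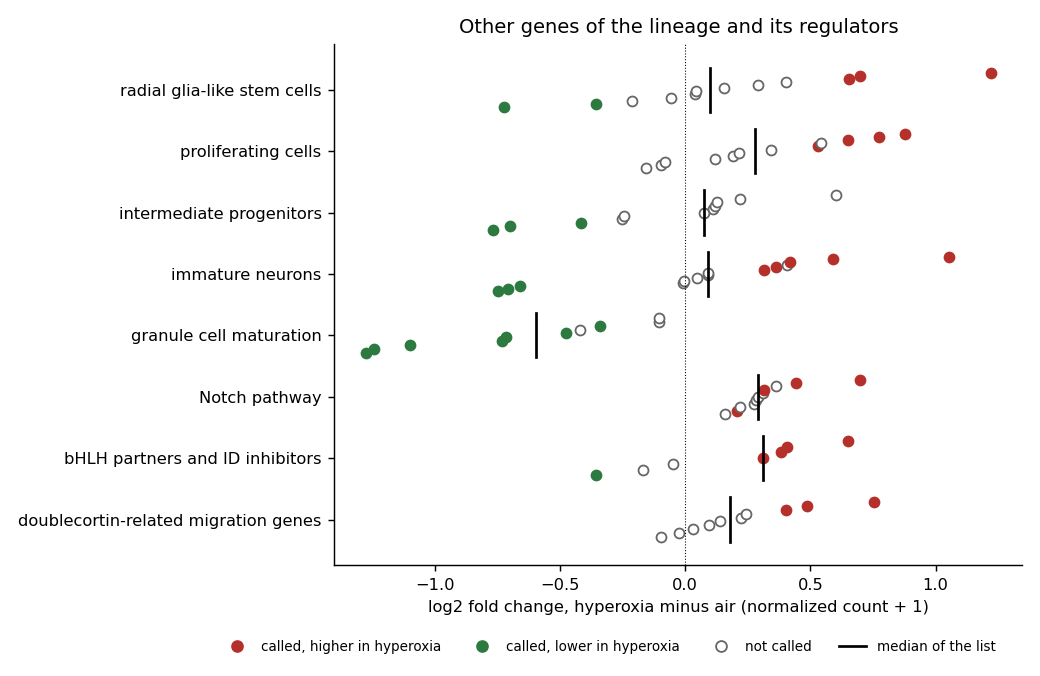
Log2 change (hyperoxia minus air) of the genes of 8 lists of the lineage and its regulators, 1 point per gene, red where called higher, green where called lower, open where not called, with the median as a bar. The median is lowest for granule cell maturation (-0.60) and highest for bHLH partners and ID inhibitors (0.31).

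Regulators of the stage genes were counted in the same way. Of 11 genes of the Notch pathway, which keeps stem cells from differentiating, 4 rose (Hes1, Notch1, Notch3 and Hey1) and none fell. The other 7 were not called by limma, and the median was 0.29. The share called was near that of all genes (30.5%, with 14.9% as higher). Hes1 had 277.8, 311.4 and 309.0 normalized counts in air and 483.5, 571.7 and 414.1 in hyperoxia and was called under all 16 alternatives. Notch1 and Notch3, receptors of the pathway, rose by 0.44 and 0.31 (limma adjusted p = 0.0258 and 0.0231), and the target Hey1 by 0.21 (adjusted p = 0.0418). Notch1 and Hey1 lost their calls in every fit with a library left out but that without hyperoxia library 2, and Notch3 lost it without air library 2 or 3 or hyperoxia library 3. Over the alternatives, between 1 and 5 Notch genes were called.

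The bHLH factors Neurog2 and Neurod1 bind DNA with E proteins, which ID proteins take away from them. Of 7 genes of E proteins and ID proteins, 4 rose and 1 fell, with a median of 0.31, beside 30.5% of all genes called. Id1 rose from 472.7 ± 48.64 to 742.9 ± 95.15 normalized counts (SD, n = 3; log2 change 0.65, limma adjusted p = 0.00361). Id2 rose by 0.41 (adjusted p = 0.00594), and Id3 by 0.38 (adjusted p = 0.0219). Id4, which also stands in the stem cell list, fell by 0.35 (adjusted p = 0.0129) with 1691.4 to 1777.1 in air and 1219.9 to 1469.0 in hyperoxia. Id1 and Id2 were called under all 16 alternatives. The call of Id3 was lost without air library 2 or 3, and that of Id4 without either of these or hyperoxia library 1. Tcf4, the most abundant E protein gene, had a change of -0.05 and was not called. Endothelial cells also express Id1 and Id3, and the rise of their markers is given above.

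Among the relatives of Sox2 and Sox11, 1 of 4 was called, beside 30.5% of all genes. Sox12 fell from 1923 ± 128.2 to 1492 ± 155.1 normalized counts (log2 change -0.37, limma adjusted p = 0.0151), and lost its call without air library 1 or 3 or hyperoxia library 1. Sox4, the other SoxC gene of immature neurons, had a change of 0.41 and was not called (adjusted p = 0.0597). Among 10 genes that act with doublecortin in migration, 3 rose, none fell and 7 were not called by limma (median 0.18). The share called was near that of all genes (30.5%, with 14.9% as higher). Reln, the secreted guide of migrating neurons, had 2455.1, 2312.0 and 2223.7 normalized counts in air and 4443.7, 3256.1 and 4184.2 in hyperoxia (log2 change 0.75, SE 0.11, limma adjusted p = 0.00167). Pafah1b1 (Lis1), a regulator of dynein, rose by 0.49 (adjusted p = 0.0045). Both were called under all 16 alternatives. Dclk1, the doublecortin-like kinase gene, rose by 0.40 (adjusted p = 0.0389), with 33938.7, 23317.9 and 31634.7 in hyperoxia and 21505.8 to 22569.0 in air, and its call survived the removal of hyperoxia library 2 only.

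The genes most alike to each stage over the 6 libraries were named by the root-mean-square difference of log2 values from the mean profile of its members, among 12762 genes with a mean of at least 100. For the intermediate progenitor genes these were Bhlhe22 (0.07), Ddo (0.08) and 2810410L24Rik (0.08), each of them lower in hyperoxia and past the test. That direction was set in advance by picking genes with the profile of the stage. For the stem cell genes the most alike were Sh3bp4 (0.03), Hadhb (0.03) and Parp11 (0.03). For the genes of neuroblasts and immature neurons they were Cpm (0.01), Sostdc1 (0.03) and Fer1l5 (0.04). None of these last genes, of either stage, passed the test. The mean profile of the stem cell genes in hyperoxia libraries 1, 2 and 3 was -0.04, 0.15 and 0.20 from the air mean. It was -0.83, -0.86 and -0.22 for the intermediate progenitor genes, and -0.33, -0.24 and 0.13 for the genes of neuroblasts and immature neurons. The last of these profiles averages genes of opposite direction, Neurod1 and Dcx, and describes neither. The stem cell profile likewise averages Pax6, lower in every hyperoxia library, with Nes and Sox2, which were higher.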

How the data were processed

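The deposited signal is a normalized count per gene and library, which the authors made by dividing read counts by 1 size factor per library; the tools named per the labels are FastQC, STAR 2.5.3a, HTSeq and DESeq2. The build, annotation and strand setting used for counting were not given in the sources used here. A table of the authors' own comparison (mean, fold changes, standard errors and p-values) was not used. Reads could be recovered, since 100% of values were whole multiples of 1 read (within 0.01). No pair of replicates agreed within sampling noise (chi-square per gene 6.51 to 47.23).

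log2 of the normalized count plus 1 was fitted in limma 3.58.1 (R 4.3.3, mean-variance trend) for 17778 genes averaging at least 10, with p-values adjusted by Benjamini-Hochberg and called under 0.05. This scale understates changes of genes with low values. The alternatives used another pseudocount (0.5 or 5), another filter (none, or a mean of 50), quantile or TMM scaling, no trend, edgeR 4.0.16 and DESeq2 1.42.0 on recovered reads, removal of length and GC trends (mgcv 1.9.3, 17735 genes), and leaving out each library. Scripts were tested on simulated data.

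All 9 members are named, and from each list at most 4 called genes with the largest change. Tbr1, Pcna, Prox1, Ccnd2, Sox4, Tcf4 and some cell type markers were chosen after their values were seen. A called gene that the rule names is not reported here. Members and lists were chosen with earlier results of these data known, and some genes stand in more than 1 list. Exon lengths are from GENCODE M21 (GRCm38), which held 99.7% of the gene identifiers. Nothing says that the libraries came from separate litters, so p-values measure the spread between these libraries.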

Additional observations from a re-analysis of the deposited data

How the results depend on the processing

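No stage gene changed direction under any of the 16 alternatives, and Neurod1 and Dcx kept their calls throughout. The number of stage genes called, 4 in all, was 2 under limma without the trend, where 1 was higher and 1 lower, and ranged from 2 to 6 with a library left out (1 to 3 higher, 1 to 5 lower). The 2 calls without the trend are Neurod1 and Dcx. The 6 calls came without hyperoxia library 3, when 4982 of all genes tested were called. The calls over all genes, 5425, ranged from 3048 to 7756 with a library left out, with 1445 to 3838 higher and 1603 to 3918 lower, and from 4224 to 5722 under the other settings. The 7756 calls came without hyperoxia library 2 and the 3048 without air library 1. Nes was lost without the trend (adjusted p = 0.0753) and under the length and GC correction (0.24, adjusted p = 0.139), as was Eomes (adjusted p = 0.0592 without the trend; -0.76, adjusted p = 0.0542 with the correction). edgeR and DESeq2 on the recovered reads each called the same 4 stage genes as limma. The cause of these differences was not tested. The number of stage genes whose groups do not overlap was 7 under the 5 other settings where overlap was counted. It was 7 to 9 with a library left out. Smaller groups are more easily apart, and the share of all genes was not counted for those fits. Counts in the lists with a library left out were 4 to 6 for radial glia-like cells, 2 to 4 for dividing cells, 1 to 4 for intermediate progenitors, 5 to 9 for immature neurons, 4 to 8 for granule cell maturation, 1 to 5 for Notch, 2 to 6 for E and ID proteins, 0 to 3 for Sox relatives and 2 to 5 for migration genes. No paired analysis was possible because the labels number the animals 1 to 3 in air and 4 to 6 in hyperoxia and the columns do not give the animal. Every stage gene had at least 93 reads in every library.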
